A study of Danio rerio with 70 samples.

Results

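The genes described here are 7 proximal signalling genes of the T-cell receptor, chosen by name from the 35117 genes counted: the kinases lck (ENSDARG00000102525), zap70 (ENSDARG00000015752) and txk (ENSDARG00000015068), the adaptors lat (ENSDARG00000100334) and lcp2a (ENSDARG00000055955), the costimulatory receptor cd28 (ENSDARG00000095070) and the phosphatase ptprc (ENSDARG00000071437). Each name matched 1 gene, and all 7 passed the filter on low counts in each of 17 comparisons.

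Polyadenylated RNA was sequenced from 70 zebrafish samples of 2 laboratories, to set leukaemic and preleukemic T cells beside healthy thymus. In the Speleman laboratory every fish carried Tg(rag2:GFP), a green reporter under a promoter active in immature lymphocytes. Its tumours additionally expressed the human oncogene TLX1 from the rag2 promoter, Tg(rag2:hTLX1; rag2:GFP) (2 TLX1 tumours), or expressed TLX1 with 1 mutant copy of phf6, written phf6+/- (4 tumours). Tumours of both laboratories were taken when 90% of the fish was occupied by GFP-positive cells. A further 12 libraries came from Rag2-/- fish that had received cells of 4 of those tumours, 6 per genotype, and 2 of them had been passed on from an earlier transplant. The reference of this laboratory was 6 dissected thymi without an oncogene, whose titles carry AB, the name of a common wild-type strain, and the title of 1 thymus library joins several numbers. Nothing in the labels says whether libraries of a group came from separate fish, so p-values measure the spread between these libraries. In the Frazer laboratory every fish carried Tg(lck:GFP), and cells were sorted for GFP, so the gate itself used the promoter of lck. There were 9 hulk, 10 otg and 10 shrek tumours, named for 3 mutant lines. Thymocytes taken at a preleukemic stage came from hulk (3), otg (4) and shrek (2) fish and from fish expressing human MYC from the rag2 promoter, Tg(rag2:hMYC) (3, hMYC). Sorted healthy thymocytes without a mutant line or oncogene gave 5 samples. The genes mutated in the 3 lines are not given in the sources used here.

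When a T-cell receptor is engaged, Lck phosphorylates the receptor's signalling chains, Zap70 docks there and phosphorylates the scaffold Lat, and Lat with Slp-76, the product of LCP2, gathers phospholipase C-gamma, which Tec-family kinases such as Txk activate. CD28 delivers the costimulatory signal, and CD45, the product of PTPRC, keeps Lck active by removing an inhibitory phosphate. These roles are known chiefly from mouse and human. In the thymus the same module relays the pre-receptor and receptor signals on which maturation of thymocytes depends.

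Speleman libraries held 23730828 to 41393446 reads assigned to genes, and Frazer libraries 8676867 to 19537019, apart from the 2 of shrek preleukemic cells with 56471528 and 47598816. Levels are given as CPM, a gene's reads relative to its library's total, scaled by TMM factors, which correct for a few abundant genes taking up a library. Levels of different genes are not compared, since no transcript length was available. Reads of mitochondrial genes exceeded 20% in 3 libraries, hulk tumours 1 and 2 and healthy sample 3, with a highest share of 61.4%. T-lineage markers were detected in all 13 groups, with sums over 12 genes of 1605 CPM or more, although dntt was at 0 in 25 libraries and LEF1 in 22. In dissected thymi, markers of macrophages summed to 2685 to 3502 CPM over 16 genes, those of skeletal muscle to 2453 to 4239 CPM over 8 genes and those of thymic epithelium to 1847 to 2415 CPM over 9 genes.

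The 7 genes varied to very different degrees between groups. The highest group mean exceeded the lowest by 335-fold for cd28 and by 94.95-fold for txk. For ptprc the ratio was 7.64 and for lat 4.55, and it was only 3.36 for lck, 3.02 for zap70 and 2.83 for lcp2a. Except for lck, the highest mean was in a Frazer group and the lowest in a Speleman group. Laboratory and group cannot be told apart in those ratios. The lowest cd28 mean, 0.2005 CPM in TLX1 transplants, came from 1 to 8 reads per library. With the groups ordered by level, all 12 steps between neighbours lay within the spread of the libraries for lck and lcp2a, as did 11 of 12 for cd28, 10 of 12 for zap70, txk and ptprc, and 8 of 12 for lat.

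**Figure D1:**
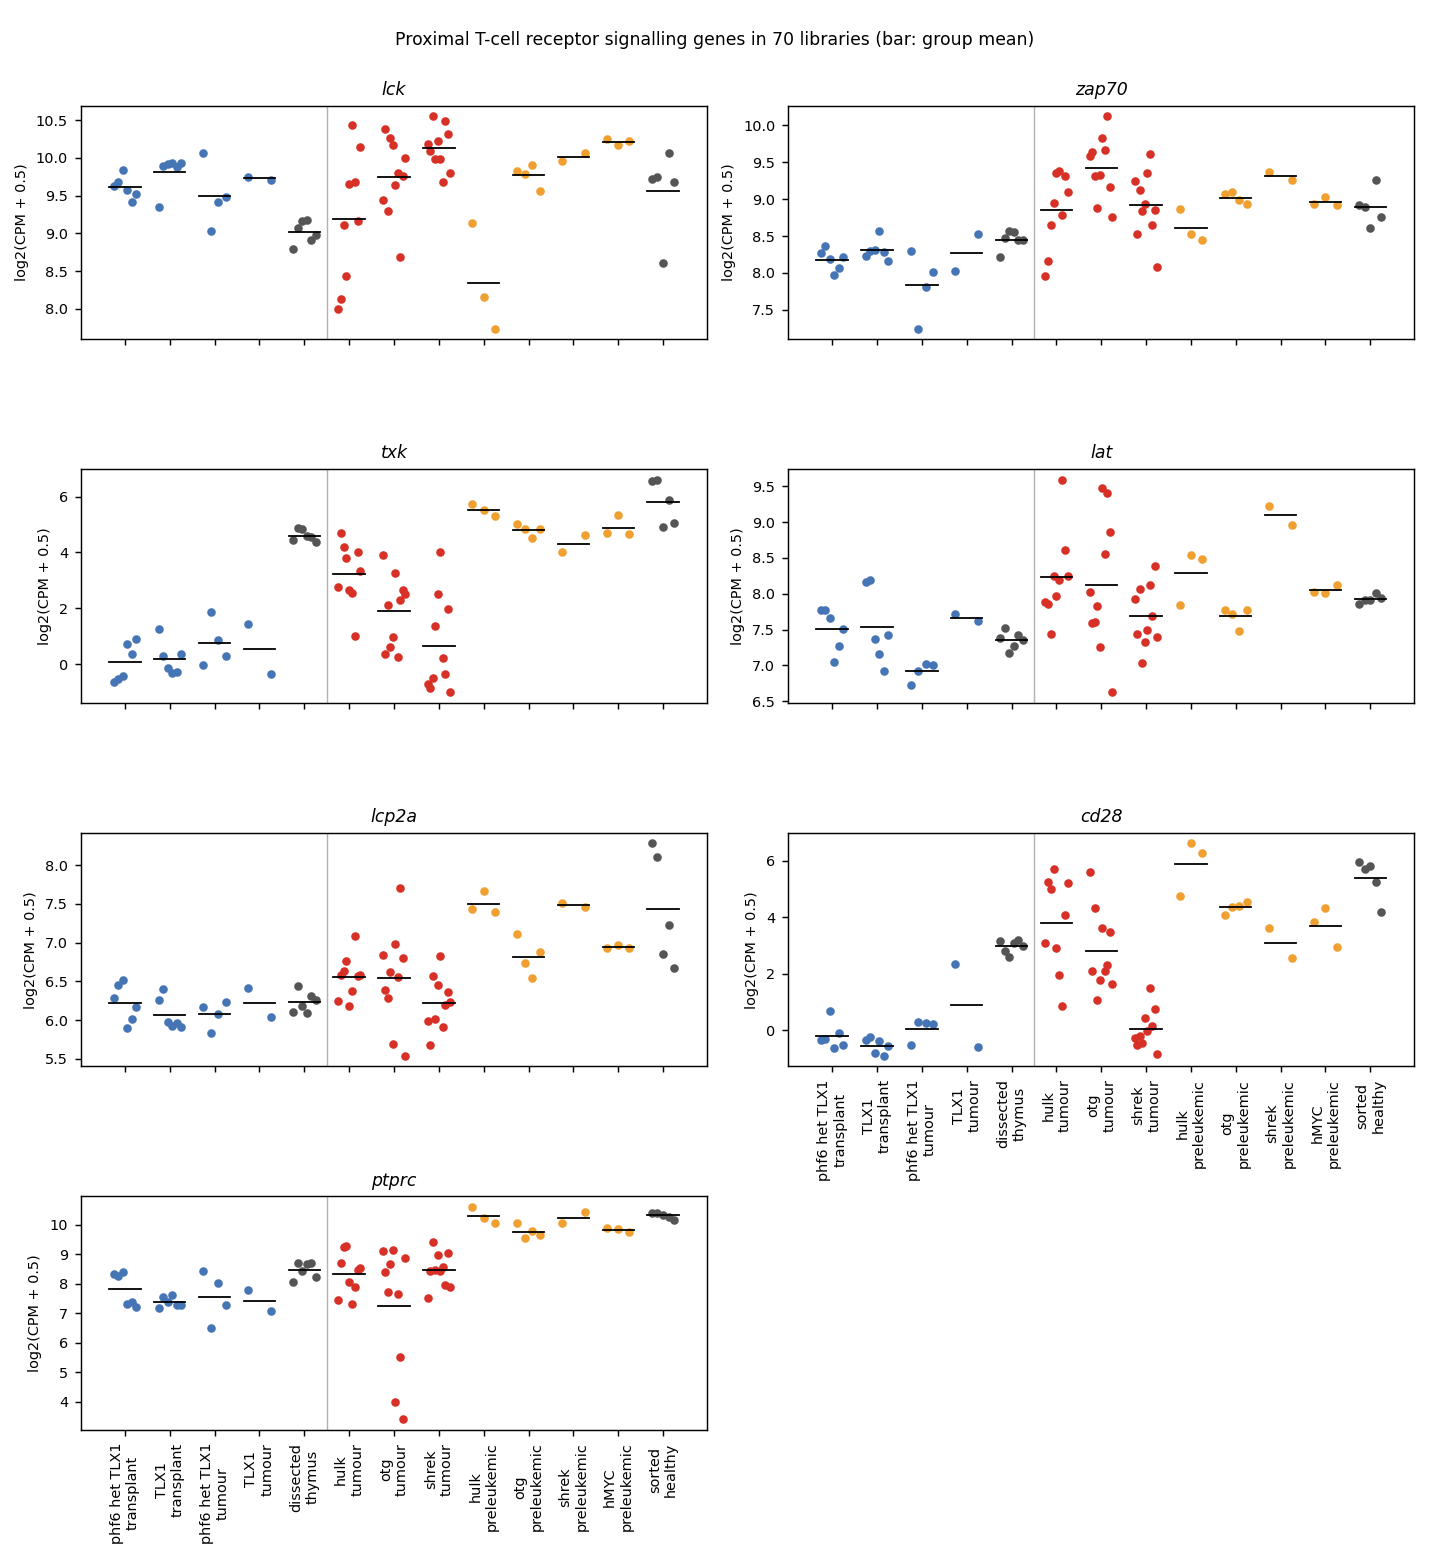
Level of each of the 7 genes as log2(CPM + 0.5) on the y axis in every library, by group on the x axis; points are libraries, bars are group means, and the vertical line separates the laboratories (Speleman left, Frazer right). Levels of txk and cd28 spread over several log2 units, with the lowest means in transplants of both genotypes, then in TLX1, phf6+/- and shrek tumours. Group means of lck and zap70 lie closer together, although single libraries of lck run from 213 to 1498 CPM.

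In primary TLX1 tumours, txk was nearly lost and cd28 was below every thymus, by the least in TLX1 tumour 1, while lck was higher than in healthy thymus on the TMM scale, though not by library size alone. Of the 7 genes, 1 rose and 3 fell in the 6 tumours of both genotypes against 6 thymi (edgeR, adjusted p below 0.05), beside 20.2% higher and 35.8% lower among all 22224 genes tested. The median log2 change was -0.25 over the 7 genes and -0.19 over all genes. Bulk libraries cannot tell fewer cells of a type from less RNA per cell, and here dissected tissue stood on the healthy side.

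Among the kinases, lck reached 858 and 837 CPM in the 2 TLX1 tumours and 1070, 521, 683 and 713 CPM in the 4 phf6+/- tumours, against 445 to 580 CPM in thymi. All but phf6+/- tumour 2 lay above every thymus, and the change was 0.72 ± 0.20 (log2, SE; edgeR adjusted p = 0.00754). Counted against library size alone, without TMM, the sign was the opposite, -0.50 with an adjusted p of 0.124, and the median of all genes moved to -1.45 on that scale. T-lineage markers summed to 10580 and 22170 CPM in TLX1 and 6100 to 21520 CPM in phf6+/- tumours, against 5414 to 6580 CPM in thymi. RAG1 had their highest mean, 13110 and 11410 CPM against 3476 CPM, while means of GATA3, bcl11ba and TCF7 were lower in tumours. Thymic epithelium and muscle markers summed to at most 534 and 163 CPM in tumours. The part of cell composition in the lck value was not tested. The Tec-family kinase txk had 2.19 and 0.288 CPM in TLX1 tumours and 0.483, 3.18, 1.32 and 0.736 CPM in phf6+/- tumours, against 20.1 to 28.6 CPM in thymi. Every tumour was far below every thymus, a 17.4-fold difference (-4.12 ± 0.52, adjusted p = 3.81e-05). Zap70 changed by -0.25 ± 0.21 and did not pass (adjusted p = 0.312).

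The adaptors hardly differed: lat changed by 0.03 ± 0.12 and lcp2a by 0.02 ± 0.15 (adjusted p = 0.847 and 0.914). Approximate 95% intervals, taken as 2 SE either way, were -0.22 to 0.28 and -0.27 to 0.31. Relative to library size alone both were lower in tumours, lat by -1.24 (adjusted p = 0.000123) and lcp2a by -1.23 (adjusted p = 0.000624), close to the -1.45 of the median gene. The costimulatory receptor cd28 had 4.63 and 0.165 CPM in TLX1 tumours and 0.207 to 0.722 CPM in phf6+/- tumours, against 5.63 to 8.79 CPM in thymi. TLX1 tumour 1 stood well above the other 5, yet below every thymus, and the change was -2.60 ± 0.57 (adjusted p = 0.0019). Ptprc, found on all leukocytes, had 220 and 134 CPM in TLX1 tumours and 342, 89.8, 262 and 157 CPM in phf6+/- tumours, against 269 to 420 CPM in thymi. The groups overlapped through phf6+/- tumour 1, and the fall of 0.78 ± 0.31 (adjusted p = 0.0443) did not pass without TLX1 tumour 2 (adjusted p = 0.164) or without phf6+/- tumour 4 (adjusted p = 0.0729). Macrophage markers summed to 202 to 1403 CPM in these tumours, below every thymus, but most of that sum in thymi came from cd74a and cd74b, the genes of the MHC class II invariant chain. The other 14 genes of the list summed to 169 to 323 CPM in TLX1 tumours and 96.4 to 849 CPM in phf6+/- tumours, against 135 to 176 CPM in thymi, and 9 and 12 of all 16 had a higher mean in TLX1 and in phf6+/- tumours than in thymi. Cytotoxic and NK markers summed to 1.62 to 33.6 CPM in tumours against 37.9 to 66.6 CPM in thymi, mostly through the granzyme gene gzma. Without gzma they summed to 2.30 and 30.8 CPM in TLX1 tumours and 1.55 to 7.99 CPM in phf6+/- tumours, against 9.75 to 13.96 CPM in thymi, and 5 and 3 of 12 genes had a higher mean than in thymi. Neutrophil markers were higher in every tumour, at 476 and 487.5 CPM in TLX1 and 254 to 1508 CPM in phf6+/- tumours, against 83.6 to 140 CPM in thymi. The part of these cells in the lower txk, cd28 and ptprc was not tested. By scaling, the genome-wide split was 4493 genes higher and 7950 lower with TMM, and 606 higher and 16318 lower by library size alone, when 0 of the 7 genes rose and 6 fell.

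Between the 2 genotypes of TLX1 tumour, 0 of the 7 genes passed in edgeR, beside 0.0405% of genes in either direction. An unadjusted p below 0.05 in edgeR was reached by 2 of them, lat and cd28, and by 3009 of all 22224 genes. DESeq2 called 1 of the 7 and 719 genes in all. All genes split into 5 higher and 4 lower with TMM and into 10 and 3 with DESeq2 size factors. The 1 of the 7 that DESeq2 called was lat, at 106, 121, 130 and 128 CPM in phf6+/- tumours against 211 and 195 CPM in TLX1 tumours. The groups did not overlap, with a change of -0.85 ± 0.18 (edgeR adjusted p = 0.12, DESeq2 adjusted p = 7.96e-06). In the transplants lat did overlap between genotypes, at 131.8 to 218.5 CPM in phf6+/- and 120.9 to 292.4 CPM in TLX1 transplants. The cd28 change of -2.19 ± 0.77 (adjusted p = 0.264) turned on the 2 TLX1 tumours: it was -3.135 without TLX1 tumour 2 (adjusted p = 0.0146) and 1.60 without TLX1 tumour 1 (adjusted p = 0.364).

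Transplants of 4 tumours were summed per tumour of origin and set against that tumour. In edgeR 0 of the 7 genes passed the threshold, beside 0.13% of 17650 genes. DESeq2 called 0 of the 7 and 646 genes in all. An unadjusted p below 0.05 in edgeR was reached by 0 of the 7 and by 1766 genes. Changes ranged from -1.02 ± 0.93 for cd28 and -0.81 ± 0.55 for txk to 0.37 ± 0.26 for lat. The low levels of txk and cd28 were present again in the recipients. Txk had 0.144 to 1.37 CPM in the 6 phf6+/- transplants and 0.315 to 1.92 CPM in the 6 TLX1 transplants (0.807 CPM at most without transplant 1-1), and cd28 had 0.146 to 1.099 CPM in phf6+/- transplants and 0.0362 to 0.343 CPM in TLX1 transplants. By tumour of origin, ptprc did not overlap in phf6+/- transplants but did in TLX1 transplants, and lat did not overlap in either genotype. Ptprc had 326, 309 and 338 CPM in transplants of phf6+/- tumour 1, against 159, 168 and 147 CPM in those of phf6+/- tumour 2. The parents stood at 342 and 89.8 CPM, in the same order. In TLX1 transplants ptprc had 144 and 190 CPM for TLX1 tumour 1 and 154.5 to 197 CPM for TLX1 tumour 2. Their parents stood at 220 and 134 CPM. Lat had 287 and 292 CPM in transplants of TLX1 tumour 1, against 121 to 171 CPM in those of TLX1 tumour 2, with parents at 211 and 195 CPM. Transplants of phf6+/- tumour 1 had 202 to 218.5 CPM of lat and those of phf6+/- tumour 2 had 132 to 182 CPM. There the parents ran in the opposite order, at 106 and 120.5 CPM. With 1 parent each these differences were not tested. Genome-wide, 3 genes were higher and 20 lower with TMM, and 159 higher and 171 lower by library size alone.

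In the mutant lines, ptprc, txk and lcp2a were lower than in sorted healthy thymocytes in all 3 lines, and cd28 was in addition almost absent from shrek tumours. In hulk tumours 0 of the 7 genes rose and 3 fell, beside 8.47% and 5.19% of 21831 genes. In otg tumours 1 rose and 4 fell, beside 12.8% and 15.1%. In shrek tumours 0 rose and 4 fell, beside 8.53% and 21.7%. The median log2 change of the 7 genes was -0.83 in hulk, -0.73 in otg and -1.22 in shrek tumours, against 0.09, -0.04 and -0.02 over all genes. The 3 comparisons share the 5 healthy samples, and because those samples stand in a table of their own, a difference of table and one of group cannot be told apart.

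**Figure D2:**
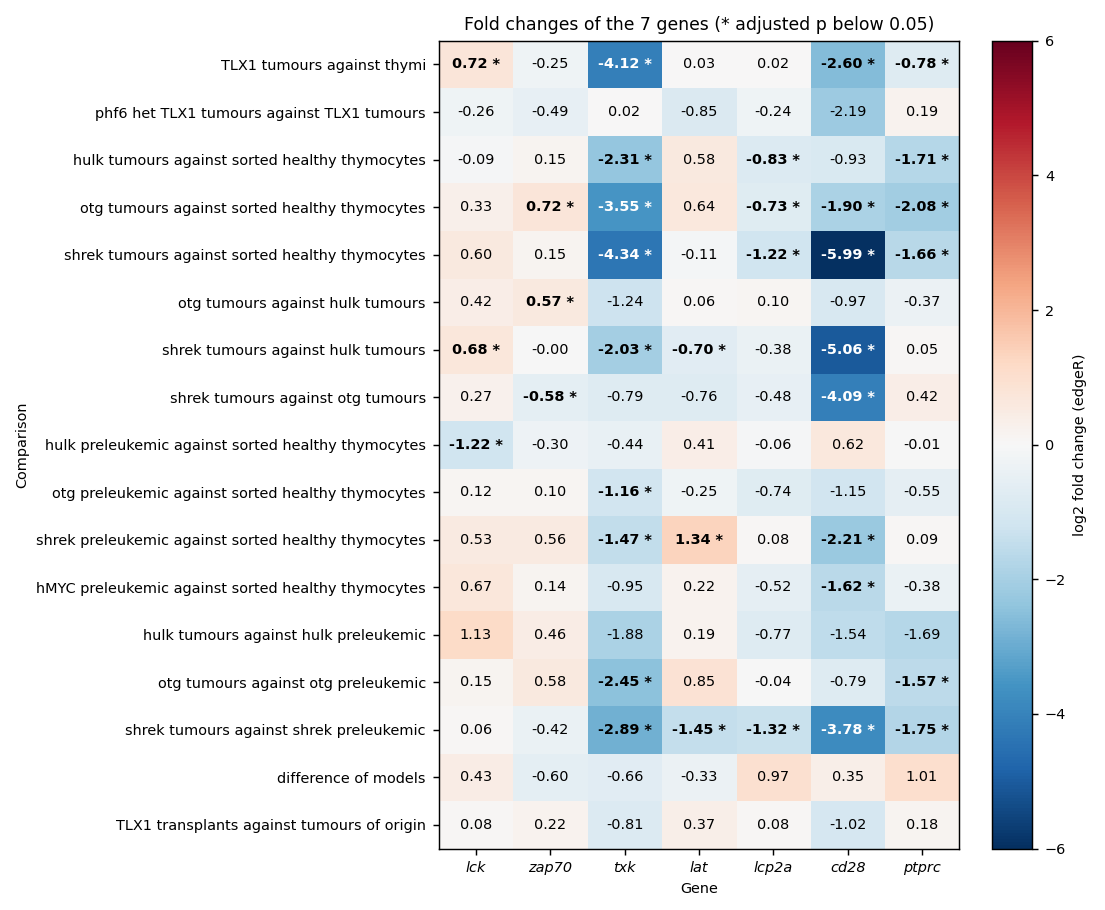
Log2 fold change (edgeR) of the 7 genes on the x axis in the 17 comparisons on the y axis, first-named group over the second; red is higher, blue is lower, and an asterisk marks an adjusted p below 0.05. The columns of txk, cd28 and ptprc are blue in most tumour comparisons, with -5.99 for cd28 in shrek tumours against healthy thymocytes as the lowest value.

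Ptprc separated tumours from healthy cells without overlap. It had a lowest, median and highest value of 158, 350.2 and 628 CPM in hulk tumours, 10.1, 275 and 563 CPM in otg tumours and 185, 350.4 and 681 CPM in shrek tumours, against 1364, 1348, 1286, 1226 and 1152 CPM in healthy samples 1 to 5. The healthy samples were tightly grouped, and each of the 29 tumours lay below all 5. The change was -1.71 ± 0.48 in hulk (edgeR adjusted p = 0.0164), -2.08 ± 0.47 in otg (adjusted p = 0.00123) and -1.66 ± 0.47 in shrek (adjusted p = 0.00589). Without the 3 libraries rich in mitochondrial reads the hulk value was -1.665 with an adjusted p of 0.0533.

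Txk was lower in every tumour than in every healthy sample. Its lowest, median and highest values were 1.535, 9.51 and 25.6 CPM in hulk, 0.698, 4.13 and 14.6 CPM in otg and 0, 0.476 and 15.8 CPM in shrek tumours, against 93.0, 96.2, 29.3, 58.3 and 32.7 CPM in healthy samples 1 to 5. The single 0 was shrek tumour 011, where a count of 0 among 16344097 reads allows up to 0.174 CPM, a limit that covers counting error only. The log2 change was -2.31 ± 0.78 in hulk (adjusted p = 0.0423), -3.55 ± 0.78 in otg (adjusted p = 0.00103) and -4.34 ± 0.79 in shrek tumours (adjusted p = 7.26e-05). The hulk call was lost without healthy sample 1, 2, 4 or 5 (adjusted p of 0.0982, 0.102, 0.0747 and 0.0554) and without the filter on low counts (adjusted p = 0.0519). Cytotoxic and NK markers summed to 6.36 to 191 CPM in hulk, 1.98 to 851 CPM in otg and 1.335 to 43.9 CPM in shrek tumours, against 55.4 to 215 CPM in healthy samples. Without gzma the sums were 5.70 to 183 CPM in hulk, 1.70 to 95.3 CPM in otg and 0.854 to 17.8 CPM in shrek tumours, against 16.1 to 175.5 CPM in healthy samples, and 5, 1 and 0 of the 12 genes had a higher mean in the lines than in healthy samples. Their part in the txk values was not tested.

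The costimulatory receptor cd28 set the lines apart. Its lowest, median and highest values were 1.315, 16.4 and 51.6 CPM in hulk, 1.59, 4.18 and 47.7 CPM in otg and 0.0581, 0.428 and 2.32 CPM in shrek tumours, against 61.9, 52.0, 56.2, 37.3 and 17.7 CPM in healthy samples. All 10 shrek tumours were below every healthy sample, at 1 to 38 reads per library, while 8 of 10 otg and 5 of 9 hulk tumours were. The change was -5.99 ± 0.70 in shrek (63.4-fold lower, adjusted p = 9.34e-08), -1.90 ± 0.63 in otg (adjusted p = 0.0207) and -0.93 ± 0.65 in hulk (adjusted p = 0.346). The otg call did not pass without healthy sample 1 (adjusted p = 0.051) or when only the 2 groups entered the fit (adjusted p = 0.0583).

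The adaptor lcp2a fell in all 3 lines, with changes of -0.83 ± 0.26 in hulk (adjusted p = 0.03), -0.73 ± 0.26 in otg (adjusted p = 0.0288) and -1.22 ± 0.25 in shrek tumours (adjusted p = 0.000333). Its median was 95.4 CPM in hulk, 95.8 CPM in otg and 73.7 CPM in shrek tumours, against 149 CPM in healthy samples. Healthy samples 1 and 2 had 311 and 275 CPM and the other 3 had 116, 149 and 102 CPM, overlapping the tumours, which reached 135 CPM in hulk and 208 CPM in otg. Without healthy sample 1 the value was -0.61 in hulk (adjusted p = 0.154) and -0.51 in otg (adjusted p = 0.173), and without sample 2 it was -0.68 (adjusted p = 0.118) and -0.58 (adjusted p = 0.124). The shrek call held under each of these.

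Lat, the scaffold, did not pass in any line, with changes of 0.58 ± 0.36 in hulk, 0.64 ± 0.36 in otg and -0.11 ± 0.34 in shrek tumours. It was the most even gene in healthy cells, 231 to 257 CPM, and uneven in tumours, 174 to 769.6 CPM in hulk, 98.2 to 715 CPM in otg and 131 to 333 CPM in shrek. Lck did not pass either, at -0.09 ± 0.31 in hulk, 0.33 ± 0.31 in otg and 0.60 ± 0.32 in shrek tumours, and its 95% interval in shrek reached from -0.03 to 1.23. Healthy sample 3, with 22.0% mitochondrial reads, had 389.5 CPM of lck and the other 4 had 821 to 1070 CPM. Zap70 rose in otg tumours, by 0.72 ± 0.25 (adjusted p = 0.028), with 432, 704.5 and 1112 CPM as the lowest, median and highest, against 392 to 615 CPM in healthy samples. That call was lost with DESeq2 size factors (0.58, adjusted p = 0.0644), with library size alone (0.04, adjusted p = 0.94) and without healthy sample 1, 2, 3 or 5 (adjusted p of 0.0607, 0.0619, 0.0763 and 0.0539).

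The genome-wide split also moved with scaling. In otg tumours 2800 genes were higher and 3305 lower with TMM, and 742 higher and 4902 lower by library size alone, when 0 of the 7 genes rose and 4 fell. In shrek tumours the split was 1863 higher and 4730 lower with TMM, and 761 higher and 5023 lower by library size, when 0 rose and 4 fell. In hulk tumours it was 1850 higher and 1133 lower with TMM, and 939 higher and 1101 lower by library size, when the same 3 genes fell.

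Macrophage markers summed to 210 to 2554 CPM in hulk, 23.2 to 2582 CPM in otg and 25.4 to 1558 CPM in shrek tumours, against 628 to 1764 CPM in healthy samples, nearly all of it from cd74a and cd74b in healthy samples. The other 14 genes summed to 15.9 to 137 CPM in hulk, 4.80 to 175 CPM in otg and 2.50 to 21.0 CPM in shrek tumours, against 16.6 to 35.5 CPM in healthy samples. Of all 16 genes, 10 in hulk, 11 in otg and 3 in shrek tumours had a higher mean than in healthy samples. B-cell markers summed to 9.65 to 234 CPM, 1.435 to 85.3 CPM and 3.11 to 60.3 CPM in the same 3 lines, against 10.5 to 70.1 CPM in healthy samples. Their part in the ptprc and cd28 values was not tested.

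Single otg tumours differed most in ptprc. Tumours 5, 7 and 8 had 15.6, 45.7 and 10.1 CPM, from 144, 465 and 68 reads, whereas the other 7 had 203.5 to 563 CPM. The same 3 tumours had the 3 highest values of lat, 715, 676 and 463 CPM, while the other 7 had 98.2 to 376 CPM. Relative to library size alone, lat was 436, 505 and 191 CPM in the 3 tumours and 126 to 335 CPM in the other 7, so tumour 8 was then among the rest. Mitochondrial reads made up 11.9%, 2.88% and 6.87% of tumours 5, 7 and 8 and 0.479% to 5.17% of the other 7, and their TMM factors, 0.61, 0.75 and 0.41, were the lowest of the line, the other 7 having 0.83 to 1.28. T-lineage markers summed to 2387, 2030 and 4039 CPM in tumours 5, 7 and 8 and to 3750 to 16120 CPM in the other 7. Of these 12 genes RAG1 had the highest mean in otg tumours, 2943 CPM, and sums without it were not made. Neutrophil markers summed to 122, 837 and 161 CPM in the 3 tumours and to at most 28.1 CPM in the others, and macrophage markers to 2582, 1938 and 1195 CPM in the 3 and to 23.2 to 2451 CPM in the others. Without cd74a and cd74b, the macrophage sums were 72.4, 175 and 65.4 CPM in the 3 and 4.80 to 33.4 CPM in the others. The part of other cells and of RNA quality in the ptprc and lat values was not tested. Relative to library size alone, ptprc was 9.55, 34.1 and 4.16 CPM in the 3 tumours and 182 to 675 CPM in the other 7. These tumours were singled out after their values were seen, so no test was made between them and the rest.

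**Figure D3:**
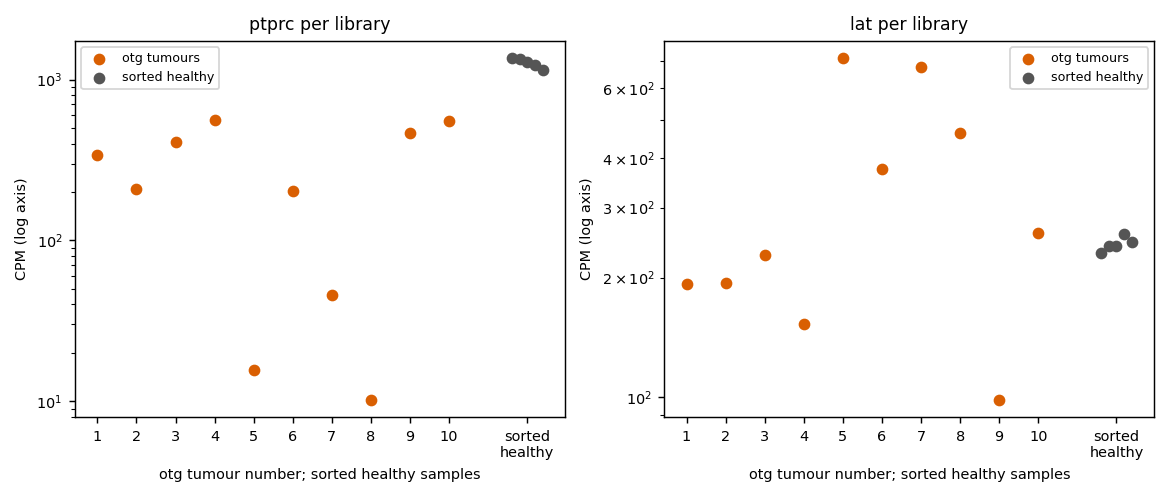
Level of ptprc (left) and lat (right) in CPM on a logarithmic y axis, in each of the 10 otg tumours by number and in the 5 sorted healthy samples at the right of each panel. Tumours 5, 7 and 8 are the lowest 3 for ptprc, at 45.7 CPM or less, and the highest 3 for lat, at 463 CPM or more, although by library size alone tumour 8 had 191 CPM of lat and lay among the rest.

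Direct contrasts of the lines repeated the pattern of cd28. Shrek tumours against hulk tumours had 1 of the 7 genes higher and 3 lower, beside 15.3% and 31.4% of genes. The change of cd28 was -5.06 ± 0.65 (adjusted p = 6.27e-07), and 9 of 10 shrek tumours lay below every hulk tumour. Txk fell by 2.03 ± 0.68 (adjusted p = 0.0144) and lat fell by 0.70 ± 0.29 (adjusted p = 0.0456), and lck rose by 0.68 ± 0.26 (adjusted p = 0.0284). Without the libraries rich in mitochondrial reads, which include hulk tumours 1 and 2 at 254.5 and 280.0 CPM of lck, the lck change was 0.45 (adjusted p = 0.13). By library size alone neither lck (0.69, adjusted p = 0.0846) nor lat (-0.50, adjusted p = 0.08) passed, and with only these lines in the fit lck (adjusted p = 0.065) and txk (adjusted p = 0.0529) did not. Shrek against otg tumours had 0 higher and 2 lower, beside 4.49% and 13.5%: cd28 fell by 4.09 ± 0.62 (adjusted p = 1.37e-05) and zap70 fell by 0.58 ± 0.20 (adjusted p = 0.0382). Otg against hulk tumours had 1 higher and 0 lower, beside 9.29% and 19.1%, and that gene was zap70 at 0.57 ± 0.21 (adjusted p = 0.0333). By library size alone the zap70 values were -0.14 (adjusted p = 0.754) and 0.18 (adjusted p = 0.661), and neither passed. In shrek against otg tumours 980 genes were higher and 2952 lower with TMM, and 961 higher and 1083 lower by library size. In otg against hulk tumours 2029 were higher and 4167 lower with TMM, and 799 higher and 5116 lower by library size. The median of all genes then moved by more than 0.1, to 0.18 in the shrek contrast and to -0.35 in the otg contrast.

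Across the 29 mutant-line tumours, 6 genes were correlated with lck on the scale log2(CPM + 0.5), and p-values from 100000 permutations were adjusted over the 6. Cd28 gave Pearson r = -0.623 (permutation p = 0.00052, adjusted 0.00306) and Spearman rho = -0.641 (permutation p = 0.00022, adjusted 0.00132), and txk gave r = -0.56 (permutation p = 0.00102, adjusted 0.00306) and rho = -0.593 (permutation p = 0.001, adjusted 0.003). Without the 2 tumours farthest from the median of lck, r was -0.625 and -0.518. The lines differ in level, and within them the relation was weaker: r was -0.43 in hulk, -0.493 in otg and -0.0927 in shrek tumours for cd28, and -0.47, -0.547 and -0.0603 for txk. By library size alone r was -0.41 for cd28 (permutation p adjusted 0.0643) and -0.251 for txk (adjusted 0.286). Zap70, lat, lcp2a and ptprc gave r of 0.215, -0.226, -0.34 and 0.115, none past the threshold, with adjusted permutation p of 0.15 to 0.532. Scaled by library size, zap70 (r = 0.538, adjusted permutation p = 0.0298) and ptprc (r = 0.51, adjusted permutation p = 0.0373) did pass, and without the libraries rich in mitochondrial reads lcp2a did (r = -0.471, adjusted permutation p = 0.0301). Zap70 ran in opposite directions within lines, with r of 0.785 in hulk and -0.579 in otg tumours, and that difference was not tested.

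**Figure D4:**
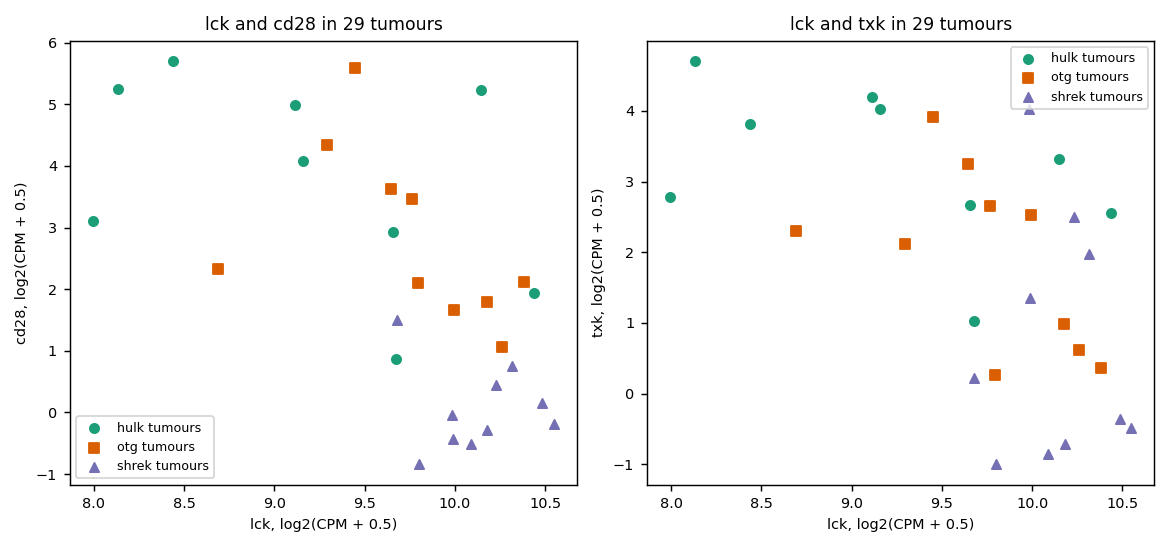
Log2(CPM + 0.5) of lck on the x axis against cd28 (left) and txk (right) on the y axis in the 29 hulk, otg and shrek tumours, 1 point per tumour with colour and shape by line. In the cd28 panel every shrek tumour but 007 lies below all hulk and otg tumours. In the txk panel shrek tumours reach from 0 to 15.8 CPM and overlap the other lines. Over all tumours r was -0.623 for cd28 and -0.56 for txk.

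In preleukemic thymocytes, taken before leukaemia, between 1 and 3 of the 7 genes passed against sorted healthy cells, which these comparisons share with those of the tumours. Hulk preleukemic thymocytes had 0 of the 7 genes higher and 1 lower, beside 2.24% and 1.54% of 19531 genes. Otg preleukemic cells had 0 higher and 1 lower, beside 1.75% and 3.58%. Shrek preleukemic cells had 1 higher and 2 lower, beside 17.3% and 20.7%, and hMYC preleukemic cells 0 higher and 1 lower, beside 8.61% and 11.3%. The split of all genes moved with scaling: 437 higher and 300 lower in hulk cells with TMM against 319 and 105 by library size, 3388 and 4036 against 1402 and 5365 in shrek cells, and 1682 and 2214 against 832 and 2366 in hMYC cells. By library size alone 0 of the 7 genes passed in hulk and in otg preleukemic cells.

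Lck fell in hulk preleukemic cells, which had 562, 284 and 213 CPM, against 389.5 to 1070 CPM in healthy samples (-1.22 ± 0.32, adjusted p = 0.0417). The groups overlapped, and the call was lost without hulk sample 2 or 3 (adjusted p = 0.15 and 0.242) or healthy sample 1, 2, 4 or 5 (adjusted p of 0.059, 0.0821, 0.0953 and 0.0705). T-lineage markers summed to 1605 to 4027 CPM in those hulk cells, against 2714 to 6900 CPM in healthy samples, and their part in the lck value was not tested. Txk fell in otg preleukemic cells, at 31.9, 28.4, 22.1 and 28.3 CPM (-1.16 ± 0.31, adjusted p = 0.039), a call lost without any 1 of the 4 otg samples (adjusted p of 0.081, 0.0914, 0.133 and 0.107) or healthy samples 1, 2 or 4 (adjusted p of 0.108, 0.114 and 0.053). In shrek preleukemic cells txk had 15.5 and 24.4 CPM (-1.47 ± 0.41, adjusted p = 0.0108) and cd28 had 11.7 and 5.40 CPM (-2.21 ± 0.56, adjusted p = 0.00636). The txk call was lost without shrek sample 001 (adjusted p = 0.127) and the cd28 call without sample 002 (adjusted p = 0.0943). In hMYC cells cd28 had 13.9, 19.6 and 7.21 CPM (-1.62 ± 0.46, adjusted p = 0.0227), which was lost without sample 1 (adjusted p = 0.0699) or 3 (adjusted p = 0.114).

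Lat went the other way in shrek preleukemic cells. It had 600.2 and 499.7 CPM, against 231 to 257 CPM in healthy samples, a rise of 1.34 ± 0.22 (adjusted p = 0.000551), with both samples above every healthy one. These 2 libraries are also the deepest of the laboratory, and the part of depth was not tested. Ptprc did not pass in edgeR in any preleukemic group. It had 1061 and 1369 CPM in shrek preleukemic cells, 1552, 1214 and 1079 CPM in hulk, 757 to 1062 CPM in otg and 859.6 to 958 CPM in hMYC cells, against 1152 to 1364 CPM in healthy samples. All otg and hMYC samples lay below every healthy one, while the hulk and shrek samples overlapped them. The 95% intervals of the log2 change against healthy samples were -0.38 to 0.56 in shrek, -0.42 to 0.41 in hulk, -0.93 to -0.16 in otg (adjusted p = 0.108) and -0.80 to 0.04 in hMYC cells (adjusted p = 0.201). DESeq2 called the otg change (-0.53, adjusted p = 0.00515) and the hMYC change (-0.47, adjusted p = 0.0131).

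Against the preleukemic cells of the same line, ptprc was lower in every tumour of all 3 lines. Otg tumours had 0 of the 7 genes higher and 2 lower, beside 6.55% and 5.52% of genes: ptprc fell by 1.57 ± 0.49 (adjusted p = 0.031) and txk fell by 2.45 ± 0.80 (adjusted p = 0.0384). Neither passed when any 1 of the 4 preleukemic samples was left out, with adjusted p of 0.0528 to 0.103 for ptprc and 0.0662 to 0.0995 for txk. Shrek tumours had 0 higher and 5 lower, beside 6.12% and 9.25%. There the change was -3.78 ± 0.78 for cd28 (adjusted p = 0.00111), -2.89 ± 0.94 for txk (adjusted p = 0.0321), -1.32 ± 0.34 for lcp2a (adjusted p = 0.00691), -1.45 ± 0.44 for lat (adjusted p = 0.021) and -1.75 ± 0.61 for ptprc (adjusted p = 0.0433). Only 2 preleukemic shrek samples stand behind these values: without sample 001 none of the 5 passed (adjusted p of 0.0693, 0.127, 0.111, 0.238 and 0.177 in the same order), and without sample 002 cd28 alone did, while the others had adjusted p of 0.255, 0.0743, 0.11 and 0.291. Hulk tumours had 0 of the 7 past the threshold in edgeR, beside 0.206% of genes in either direction, and 0 in DESeq2, beside 623 genes. An unadjusted p below 0.05 in edgeR was reached by 5 of the 7 and by 3619 of 21831 genes. Of these 5, ptprc changed by -1.69 ± 0.55 (adjusted p = 0.122) and lck by 1.13 ± 0.40 (adjusted p = 0.144). All genes split into 18 higher and 27 lower in hulk, 1430 and 1206 in otg and 1336 and 2020 in shrek with TMM. By library size alone the splits were 2 and 16, 152 and 2432, and 834 and 1067, and with DESeq2 size factors the shrek split was 1503 and 1470. Ptprc in shrek tumours did not pass with DESeq2 size factors (adjusted p = 0.0697) or by library size (adjusted p = 0.186).

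The change from healthy cells in the TLX1 model was set against the mean change of the 3 lines. For 0 of the 7 genes did the difference pass in edgeR, beside 6.29% of 22881 genes in either direction. In DESeq2 0 of the 7 passed as well, beside 2541 genes. An unadjusted p below 0.05 in edgeR was reached by 1 of the 7 and by 4962 genes. The 1 of the 7 was lcp2a, at 0.97 ± 0.35 (adjusted p = 0.0823). For txk the difference was -0.66 ± 1.15, with a 95% interval of -2.96 to 1.64, and for cd28 it was 0.35 ± 0.98. All genes split into 481 higher and 958 lower with TMM and into 208 and 3248 by library size alone, when zap70 passed as lower. Laboratory and dissection against sorting go with the model in this contrast and cannot be told apart from it.

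Other genes of the pathway were taken as lists, whose counts stand against the shares of all genes called given above. The list of receptor chains holds cd247, the zeta chain that Lck phosphorylates, and also the coreceptor genes cd4-1 and cd8a. It had 3 of 6 genes higher and 1 lower in TLX1 tumours against thymi, so these counts are not of receptor subunits alone. Cd247 had 292 CPM in tumours against 145 CPM in thymi (1.09 ± 0.18, adjusted p = 0.00022). In otg tumours cd247 rose as well, by 1.54 ± 0.43 (adjusted p = 0.00702). Its paralogue cd247l was the gene that fell, with 0.474 CPM in TLX1 tumours against 2.80 CPM in thymi (-2.56 ± 0.27, adjusted p = 1.18e-05). It fell as well in otg (-3.27 ± 0.95, adjusted p = 0.0093) and in shrek tumours (-6.53 ± 1.08, adjusted p = 1.8e-05), where it was the 1 gene of the 6 that passed. Among downstream adaptors and effectors, TLX1 tumours had 6 of 36 higher and 12 lower, beside 20.2% and 35.8% of all genes. PLCG1, the phospholipase that Lat recruits, rose by 1.55 ± 0.25 (528 CPM in tumours against 196 CPM in thymi, adjusted p = 2e-04). GRAP2, an adaptor that joins Lat to Slp-76, rose by 1.08 ± 0.14 (adjusted p = 5.72e-05). These rises and those of cd247 are given on the TMM scale only. By library size alone the median of all genes in TLX1 tumours was -1.45, with 606 genes higher instead of 4493. Of the same 36 genes, hulk tumours had 0 higher and 7 lower, beside 8.47% and 5.19% of all genes. Otg tumours had 0 and 11, beside 12.8% and 15.1%, and shrek tumours 1 and 15, beside 8.53% and 21.7%. Bcl10, which carries the signal to NF-kappaB, fell in the 3 lines, with changes of -1.28 ± 0.26, -1.77 ± 0.26 and -1.32 ± 0.26 (adjusted p = 0.00237, 7.85e-06 and 0.000152).

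SYK, the kinase most like Zap70, was nearly absent from shrek tumours and from every otg tumour but tumour 10. It had 0.464 to 2.89 CPM in shrek and 3.07 to 208 CPM in hulk tumours. Otg tumour 10 had 67.0 CPM and the other otg tumours 0.989 to 3.72 CPM. Healthy samples 1 to 5 had 318, 410, 91.0, 115 and 19.5 CPM. All 10 shrek tumours lay below every healthy sample, with a change of -7.06 ± 0.80 (adjusted p = 8.03e-08), and the otg change was -4.23 ± 0.72 (adjusted p = 8.69e-05). The hulk change of -1.40 ± 0.71 did not pass (adjusted p = 0.181). Preleukemic otg, shrek and hMYC cells were also lower in SYK than healthy samples. Their changes were -2.79, -3.23 and -3.14 (adjusted p = 0.0134, 0.00664 and 0.00612). Hulk preleukemic cells did not pass (0.58, adjusted p = 0.587). SYK is expressed by B cells and macrophages too, whose marker sums are given above. In healthy samples 1 to 5, cytotoxic and NK markers without gzma summed to 175.5, 149, 27.3, 78.9 and 16.1 CPM. B-cell markers summed to 59.8, 70.1, 57.3, 35.5 and 10.5 CPM there. Macrophage markers without cd74a and cd74b summed to 29.2, 30.7, 35.5, 27.2 and 16.6 CPM. The part of all these cells in the SYK values was not tested. In TLX1 tumours SYK changed by -0.81 ± 0.24 (edgeR adjusted p = 0.0109). It had 4.48 and 9.44 CPM in TLX1 and 4.92 to 11.3 CPM in phf6+/- tumours, against 12.3 to 16.1 CPM in thymi. Thymi thus lay below every sorted healthy sample. SYK was the gene of this list for which the change differed between the TLX1 model and the lines (3.44 ± 1.01, edgeR adjusted p = 0.0318). That difference also rests on the 2 healthy references, and laboratory and dissection against sorting cannot be told apart from the model in it. The Tec kinase tec fell in otg and shrek tumours, with changes of -1.53 ± 0.59 (adjusted p = 0.048) and -2.16 ± 0.59 (adjusted p = 0.00472). It fell as well in TLX1 tumours (-0.90 ± 0.33, edgeR adjusted p = 0.0325) and in shrek preleukemic cells (-1.21 ± 0.37, edgeR adjusted p = 0.0176). Hulk tumours (-0.61, edgeR adjusted p = 0.539) and hulk, otg and hMYC preleukemic cells did not pass. Other Src-family kinases and regulators had 0 of 16 higher and 11 lower in TLX1 tumours, beside 20.2% and 35.8% of all genes. They had 0 higher with 1, 5 and 9 lower in hulk, otg and shrek tumours. There 8.47%, 12.8% and 8.53% of all genes were higher and 5.19%, 15.1% and 21.7% lower.

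Costimulatory receptors and genes that respond to receptor signals were lower in many cases in shrek and TLX1 tumours. Of all genes, 21.7% fell and 8.53% rose in shrek tumours, and 35.8% fell and 20.2% rose in TLX1 tumours. The shares were 15.1% and 12.8% in otg and 5.19% and 8.47% in hulk tumours. The part of other cells in the values of these lists was not tested. Of 8 costimulatory and checkpoint receptors, 6 fell and 0 rose in shrek tumours, 4 fell and 0 rose in otg, and 1 fell and 1 rose in hulk. In TLX1 tumours 5 of 7 fell and 1 rose. Among them tnfrsf9a had 0.987 CPM in shrek tumours against 241 CPM in healthy samples (-7.77 ± 0.96, adjusted p = 2.99e-07). Of 15 receptor-responsive genes, 12 fell in shrek, 7 in otg and 0 in hulk tumours, and 0 rose in any of these. Their median log2 change was -3.16 in shrek tumours, against -0.02 over all genes, and DUSP5, a phosphatase induced by MAP kinase signals, fell by 5.98 ± 0.75 there (adjusted p = 3.75e-07). In TLX1 tumours 9 of 14 fell and 1 rose, with EGR3 at 1.59 CPM in tumours against 16.0 CPM in thymi (-3.17 ± 0.36, adjusted p = 1.67e-05). Preleukemic hMYC cells had 11 of 15 lower and 0 higher, beside 11.3% and 8.61% of all genes. Of negative regulators, 5 of 20 were higher and 4 lower in TLX1 tumours, beside 20.2% and 35.8% of all genes. In shrek tumours 3 of 21 were higher and 9 lower, beside 8.53% and 21.7%. UBASH3B (ENSDARG00000061243), 1 of the genes with that symbol, is named for a phosphatase that acts on ZAP70 in mammals. It fell in TLX1, hulk, otg and shrek tumours, with changes of -2.91, -3.83, -2.94 and -3.40 (edgeR adjusted p = 1.98e-05, 0.000466, 0.00101 and 0.000117).

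**Figure D5:**
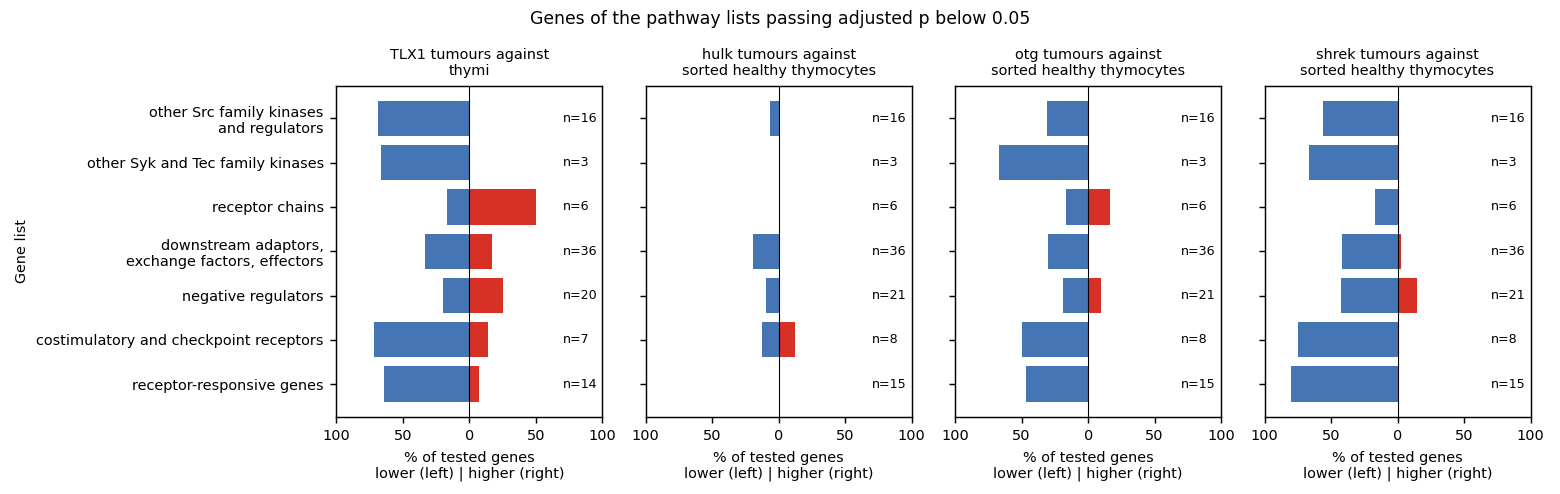
Share of the tested genes of 7 pathway lists (y axis, with n) that passed an adjusted p below 0.05 in 4 comparisons of tumours with healthy cells; bars to the left are genes lower and bars to the right genes higher in tumours, in percent. Lower genes outnumber higher ones in the lists of costimulatory receptors and receptor-responsive genes in TLX1, otg and shrek tumours. The same holds for the lists of other Src-family kinases and of downstream genes. In hulk tumours 0 of 15 receptor-responsive genes passed. Among all genes, 20.2% were higher and 35.8% lower in TLX1, 8.47% and 5.19% in hulk, 12.8% and 15.1% in otg tumours. In shrek tumours the shares were 8.53% and 21.7%.

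The genes whose profile was most like that of each member over the 46 Frazer libraries were found among 13435 genes by Pearson r of log2(CPM + 0.5), as a description. The libraries share depth and group differences. Txk was most like nrip2 (r = 0.924), capn2a (0.92) and si:dkey-242e21.3 (0.918), and cd28 most like GCNT7 (0.899), cblc (0.894) and CXCR3 (0.892). Ptprc was most like a gene with a clone name only (0.886), TLE3 (0.883) and caskb (0.883), and lat most like GOSR2 (0.853), SERF2 (0.822) and GATC (0.82). Lck was most like CDC42EP4, SMARCD1 and sowah1 (r of 0.843 to 0.847), lcp2a like litaf, DUSP1 and si:dkey-200l5.4 (0.798 to 0.838), and zap70 like ACADVL, glipr1a and SCIN (0.747 to 0.782). The 7 genes themselves were left out of this search.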

How the data were processed

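The authors deposited whole-number read counts per gene in separate tables for the Speleman samples, the Frazer leukaemic and preleukemic samples and the Frazer healthy samples. The aligner STAR, with no version, and the genome build GRCz10 are given per the submitters' processing notes, and the libraries were stranded mRNA libraries per the labels' protocols. In the Frazer counts, 4 summary entries that name no gene held 17.93% to 52.61% of the total (median 36.75%) and were left out, as were 9 columns that match no labelled sample. Symbols were found for 27000 of 35117 gene IDs.

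The genes and the gene lists were chosen with earlier results of these data known. A further gene of the module is not reported here, and counts are over the other 7. Groups follow the labels. The test was the robust quasi-likelihood F-test of edgeR 4.0.16 (R 4.3.3) after TMM scaling and filterByExpr (min.count 10, min.total.count 15), and p-values were adjusted by Benjamini and Hochberg over all genes tested, with a threshold of 0.05. The standard error is the log2 fold change divided by the square root of F. The 8 Frazer groups were fitted together, except that the contrasts of preleukemic with healthy cells used the 17 libraries of those 5 groups. Transplant counts were summed per tumour of origin, which entered as a block. CPM values use TMM factors over all 70 libraries (0.381 to 1.65). Sums of macrophage markers without cd74a and cd74b, and of cytotoxic and NK markers without gzma, were added after these genes were seen to carry the sums. The fits were tested on simulated data. Alternatives were DESeq2 1.42.0, DESeq2 size factors, library size alone, no filter, the replicate number as a block, only the groups compared, leaving out libraries with over 20% mitochondrial reads and leaving out each replicate of groups of 5 or fewer. From each list, the genes named were among the 3 with the smallest adjusted p in a comparison, apart from SYK and tec, which were followed across comparisons after their values were seen. Counts of replicate pairs differed beyond sampling noise in all 201 pairs. The number of reads limits the precision of cd28 and txk, and intervals cover the spread between libraries only.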

Additional observations from a re-analysis of the deposited data

Results flagged for a closer look

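For each of the 7 genes, the highest and lowest library of every group of 4 to 10 libraries was set against the others, and 10 of 63 gene and group pairs had a library far from the rest by Dixon's criterion. The criterion's chance rate of about 1 in 20 holds for independent values with a normal spread. CPM values were used without logarithm, and transplant libraries share tumours of origin, so the flags cannot be set against that rate. TLX1 transplant 1-1 had the lowest lck of its group, 649.6 CPM, with the nearest at 943.5 CPM, and the highest txk, 1.919 CPM, with the nearest at 0.807 CPM. That library also had 1537 CPM of cytotoxic and NK markers, against 0.214 to 7.30 CPM in the other 5, and the lowest TMM factor of the 70 libraries, 0.381, and their part in these values was not tested. TLX1 transplant 2-2-1 had the highest zap70, 377.3 CPM, with the nearest at 318.1 CPM. Shrek tumour 006 had 15.79 CPM of txk, and the next shrek tumour had 5.17 CPM. Hulk tumour 7 had 769.6 CPM of lat, with the nearest at 390.5 CPM. Otg tumour 7, 1 of the 3 tumours with little ptprc, had 208.1 CPM of lcp2a, with the nearest at 126 CPM.

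The remaining 4 concerned cd28, which rests on few reads. Transplant 1-3 of the phf6+/- tumours had 1.099 CPM from 36 reads, with the nearest at 0.4337 CPM. Phf6+/- tumour 1 was the lowest of its group at 0.2069 CPM, with the nearest at 0.679 CPM. Otg tumour 10 had 47.73 CPM, with the nearest at 19.84 CPM, and shrek tumour 007 had 2.319 CPM from 38 reads, with the nearest at 1.196 CPM.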

How the results depend on the processing

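Of 1358 values of single genes under alternatives, 1237 kept their direction and side of the threshold or passed under neither, 93 no longer passed, 25 newly passed and 3 reversed. Against thymi by library size alone, lck (-0.50), lat (-1.24) and lcp2a (-1.23) in TLX1 tumours reversed. The median of all genes was -1.45 on that scale and -0.19 with TMM, and which scale is the better one was not tested. Of 194 counts of the 7 genes that passed, 134 stayed within 1.5 times.

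Between TLX1 genotypes the count of 0 became 1 with DESeq2 and 1 with the replicate block. Over all genes 719 and 447 then passed, against 9 in the main fit. With only the compared groups in the fit, counts were 2 for otg tumours against healthy cells, 0 for otg against hulk tumours, 1 for shrek against otg tumours, 0 for hulk and 0 for otg preleukemic cells, and 0 for otg tumours against their preleukemic cells. Calls over all genes fell in those fits too, from 6105 to 1769 for otg tumours against healthy cells. For otg against hulk they fell from 6196 to 650, and for shrek against otg from 3932 to 500. In hulk preleukemic cells they fell from 737 to 105, and for otg tumours against preleukemic cells from 2636 to 169. By library size alone the counts of the 7 genes were 0 for otg against hulk, 2 for shrek against hulk and 1 for shrek against otg. They were also 0 for hulk and otg preleukemic cells, 2 for shrek tumours against their preleukemic cells, and 1 for the difference of models. With DESeq2 size factors they were 0 for otg against hulk and 2 for hMYC cells. With the DESeq2 test they were 2 for otg preleukemic, 3 for hMYC and 3 for shrek tumours against preleukemic cells. Over all genes 2048, 5617 and 4262 then passed, against 1041, 3896 and 3356 in the main fits. Without the low-count filter the counts of the 7 genes were 0 for otg against hulk, 1 for shrek against otg and 3 for shrek tumours against preleukemic cells. Without the libraries rich in mitochondrial reads they were 0 for otg against hulk and 2 for hMYC cells. The replicate block gave 1 for shrek against otg, 0 for hulk preleukemic and 2 for hMYC cells. Over all genes the block gave 1925 for shrek against otg and 253 for hulk preleukemic cells, against 3932 and 737 in the main fits.

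Replicate numbers did not pair the Frazer samples: the median correlation of 105 same-numbered pairs was -0.012, and 3 of 46 samples correlated best with their own number. Leaving out each replicate gave counts of 3 to 4 in TLX1 tumours, 0 to 1 between genotypes, 1 to 3 in hulk, 2 to 5 in otg and 4 to 4 in shrek tumours against healthy cells, 0 to 2, 0 to 3, 2 to 4 and 0 to 2 in hulk, otg, shrek and hMYC preleukemic cells, 0 to 0, 0 to 0 and 0 to 1 in hulk, otg and shrek tumours against preleukemic cells, 0 to 1 for the difference of models and 0 to 0 for transplants. The cause of these changes was not tested. Leaving out a library also lowers the number of samples, and its part was not tested either. Over all genes, the counts past the threshold ranged from 500 to 4897 for shrek against otg tumours, 105 to 4441 in hulk preleukemic cells, 8 to 719 between TLX1 genotypes, 1 to 623 for hulk tumours against preleukemic cells and 0 to 646 for transplants. By library size the correlation with lck was -0.41 for cd28 and -0.251 for txk, neither past the threshold, and 0.538 for zap70 and 0.51 for ptprc, which both passed, as did lcp2a (-0.471) without the libraries rich in mitochondrial reads. In all, 13 of 18 alternative correlations kept their side.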
